A study of Mus musculus with 48 samples.

Results

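The aorta of mice lacking elastin (Eln knockout, KO) was compared with that of wild-type (WT) mice on postnatal day 1 (P1). The arrays were chosen by their titles, as those of the Eln model at P1, which gave 8 of the 48 arrays of the series. They fall into 4 groups of 2 arrays: WT ascending aorta (AA), KO AA, WT descending aorta (DA) and KO DA, so that 4 KO arrays stand against 4 WT arrays. The whole series measured RNA of AA and DA in Eln, Efemp2 and Lox knockout mice and in wild types of each model, at embryonic day 17.5 (E17.5) and at P1. All 4 groups here were C57BL/6 mice with no treatment named. Tissue was snap frozen, and each array holds the RNA of 1 pool of like tissue from 8 mice, extracted with the RNeasy Plus Mini kit, with 5 ng amplified by the NuGEN Ovation Pico WTA system and labelled with biotin. The knockout allele, the sex of the mice and whether the AA and DA pools came from the same mice are not given in the sources used here. A p-value below therefore measures the spread between pools, which may be in part technical.

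Elastin is the protein that lets large arteries stretch under each heartbeat and recoil. Smooth muscle cells of the arterial wall secrete it as tropoelastin around birth, microfibrils built from fibrillins and their partner glycoproteins guide its deposition, and lysyl oxidases cross-link it into the lamellae that alternate with layers of smooth muscle. Mice without elastin die soon after birth, with arteries obstructed by smooth muscle cells that accumulate in the inner wall.

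Igfbp2, Ltbp2 and Col8a1 were higher in KO at both locations, and the reference promoters of these genes are shown so that the sequence can be read beside the values that follow. Each is the RefSeq sequence of GRCm38.p6 from 250 bases before to 50 bases after a gene start, 5′ to 3′ on the strand of the gene. Capitals mark the GC box (GGGCGG, or CCGCCC on the other strand) and the SMAD-type CAGA motif (CAGACA, or TGTCTG on the other strand). Igfbp2 lies at chr1:72824230-72824529 on the plus strand (the first of 2 entries), Ltbp2 at chr12:84876442-84876741 on the minus strand and Col8a1 at chr16:57754688-57754987 on the minus strand.
Igfbp2: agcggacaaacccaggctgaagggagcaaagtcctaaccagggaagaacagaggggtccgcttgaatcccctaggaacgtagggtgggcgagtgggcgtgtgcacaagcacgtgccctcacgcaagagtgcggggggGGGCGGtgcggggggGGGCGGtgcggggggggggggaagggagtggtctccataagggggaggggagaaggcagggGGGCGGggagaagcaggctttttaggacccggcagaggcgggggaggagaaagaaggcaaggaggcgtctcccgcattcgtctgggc
Ltbp2: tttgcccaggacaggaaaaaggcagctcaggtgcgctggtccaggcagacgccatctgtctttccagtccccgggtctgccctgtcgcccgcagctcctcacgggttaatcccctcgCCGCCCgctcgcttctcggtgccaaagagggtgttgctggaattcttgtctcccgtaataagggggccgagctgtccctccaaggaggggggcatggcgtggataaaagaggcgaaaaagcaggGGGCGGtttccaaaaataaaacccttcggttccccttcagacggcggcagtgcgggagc
Col8a1: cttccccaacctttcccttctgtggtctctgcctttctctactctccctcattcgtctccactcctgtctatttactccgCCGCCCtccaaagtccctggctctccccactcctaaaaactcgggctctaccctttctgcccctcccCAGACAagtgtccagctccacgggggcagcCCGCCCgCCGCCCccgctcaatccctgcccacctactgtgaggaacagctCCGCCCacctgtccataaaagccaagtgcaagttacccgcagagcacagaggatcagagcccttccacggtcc
The GC box occurred 3 times in the Igfbp2 promoter shown (0 times in the second entry of this gene, which held 1 AP-1 motif), 2 times in that of Ltbp2 and 4 times in that of Col8a1, and the CAGA motif once, in Col8a1. Among the 45 promoter-matched genes of the 53 called higher at both locations, 31 (68.9%) held a GC box and 11 (24.4%) a CAGA motif. Over the 10082 tested genes with a promoter entry these shares were 61.5% and 16.8%, and over all 27025 promoters 35.9% and 21.0%. The TEAD motif GGAATG, searched on both strands, was found in 3 of the 45 (6.67%) against 12.4% of tested genes, and the AP-1 motif in 1 of the 45 (2.22%) against 5.2%. The motifs did not overlap each other in the 3 promoters shown, and a match describes letters only.

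Values are log2 array signals, and a difference of 1 on this scale is a doubling of signal. Eln itself checked the labels: its signal was 11.88 and 11.91 in the WT AA arrays, 9.20 and 11.65 in the WT DA arrays, 5.56 and 5.32 in KO AA and 5.29 and 5.24 in KO DA. All 4 KO arrays lay far below all 4 WT arrays, close to 5.04, the median of all probe sets with 1 gene symbol over these arrays, which at least 1 group mean had to reach for a gene to be tested. Smooth muscle actin (Acta2), which defines the tissue, was at 11.40 to 12.66 on all 8 arrays. The location labels were checked against Hox genes, of which Hoxb6 had the largest gap in WT, 1.44 higher in DA than in AA, and was 1.94 higher in KO. Other posterior genes were mixed in WT. Hoxb7 (0.98), Hoxc6 (0.83) and Hoxc9 (0.56) were higher in DA, while Hoxa9 (-0.03), Hoxc8 (0.27) and Hoxd8 (-0.49) differed little or the other way. In KO each of these was higher in DA (Hoxb7 1.01, Hoxc6 1.77, Hoxc9 0.44, Hoxa9 0.77, Hoxc8 1.52, Hoxd8 0.75). Hoxa9, Hoxb7 and Hoxc9 were too dim to be tested. Both WT DA arrays stood apart: probe sets with no gene name had a median of 4.35 on each of them against 3.73 to 4.08 on the other 6, and the interquartile range of all probe sets was 2.09 and 2.13 against 2.41 to 2.81. Between these arrays WT DA replicate 1 was also the lower one for Eln and Col1a1 (8.71 against 10.63). With array background as a covariate, the genes called numbered 39 in DA rather than 2008, 129 in the mean rather than 962 and 475 in AA rather than 287. The KO effect is therefore given for AA and DA apart, and each difference is given less the median difference of all 12887 tested genes, which was 0.34 in DA, 6e-04 in AA and 0.15 in their mean.

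With location as a block, 468 genes were higher and 494 lower in KO at an adjusted p of at most 0.05 (limma, Benjamini-Hochberg), which is 7.46% of the genes tested. In AA 171 were higher and 116 lower (2.23%), and in DA 680 were higher and 1328 lower (15.6%, or 5.28% and 10.3% by direction). Of the 494 genes lower in the mean, 235 passed the filter on low signal through the WT DA group alone. The fit drew its estimate of spread from all 48 arrays, and the median residual SD was 0.308 in the 4 Eln P1 groups against 0.24 in the other 20 groups. Fitted on its own 8 arrays, with location as a term, the comparison called 7 genes, namely Igfbp2, Ltbp2, Hectd2 and Moxd1 as higher and Eln, Pln and Btbd35f12 as lower. With the 16 P1 arrays of the Eln and Efemp2 models it called 43 higher and 28 lower. Without removal of the median shift the mean gave 1428 higher and 314 lower, so higher genes made up 82% of calls rather than 48.6%, and in DA 80.7% rather than 33.9%. Leaving out WT DA replicate 2 raised the count of the mean to 1476, and leaving out KO AA replicate 2 lowered it to 433.

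With the median shift of each location removed, both KO arrays lay above both WT arrays in AA and in DA for 592 genes (4.59%), and below them for 434 (3.37%). The differences in AA and in DA were taken from separate arrays. Both tests drew the spread of each gene from the same fit of all 48 arrays, so they are not independent. Of the tested genes, 53 (0.411%) were called higher in both and 15 (0.116%) lower in both. The 53 were 31% of the genes higher in AA and 7.79% of those higher in DA, and the 15 were 12.9% and 1.13% of the lower genes. Of the 171 genes higher in AA, 126 (73.7%) also had a positive difference in DA, and of the 116 lower in AA, 79 (68.1%) had a negative one, where each sign made up 50% of all tested genes. In the opposite direction, 15 of the 171 were called lower in DA and 1 of the 116 was called higher. A gene that passed the filter through WT DA alone is by that filter lower in KO in DA, so none of the 53 could be such a gene. Of the 15 lower genes 1 was, and its lower value in DA was set by that filter. The 53 were mostly strongly expressed, 39 of them in the highest of 4 bins of signal. Of the 53, 16 (30.2%) stood in the 10 lists of matrix and integrin genes, which hold 1.2% of the tested genes. These lists were chosen with earlier results of these data known, and the share was not compared with genes of like signal. In the 16-array fit of the mean, 32 of the 53 and 7 of the 15 were still called.

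**Figure D1:**
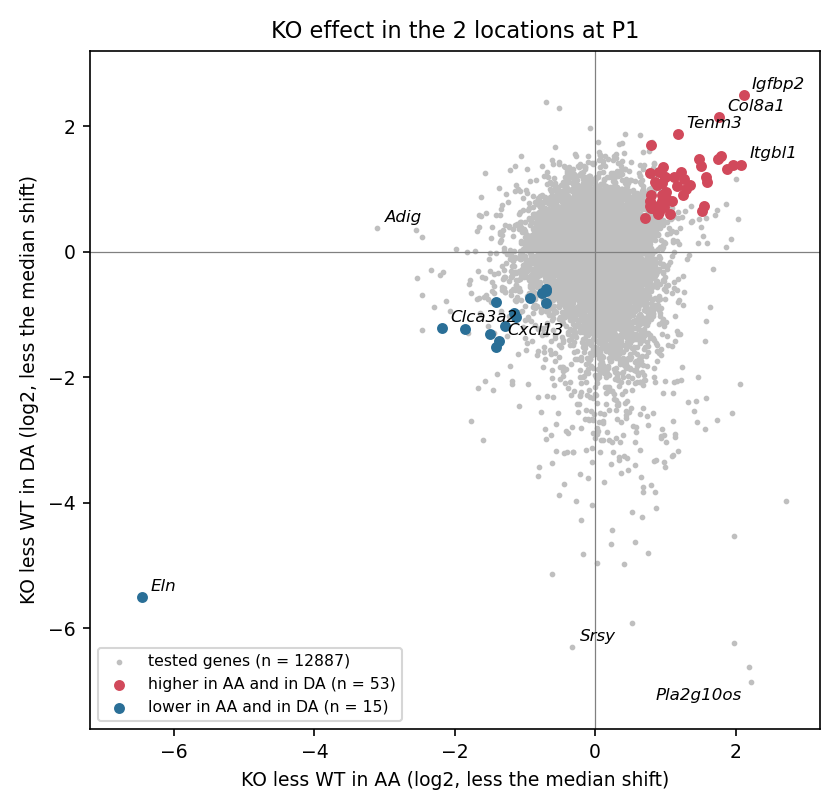
Difference between KO and WT (log2, with the median shift removed) in AA on the horizontal axis and in DA on the vertical axis. Grey points are the 12887 tested genes, red points the 53 genes called higher at both locations and blue points the 15 called lower at both. The grey tail pointing down holds genes such as Srsy and Pla2g10os that were low in KO in DA and not in AA.

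Igfbp2 had the largest rise in the mean among the genes named. It encodes a secreted binding protein for insulin-like growth factors. Its signal was 7.95 and 7.66 in WT AA and 9.92 and 9.93 in KO AA, and 6.69 and 7.42 in WT DA against 10.05 and 9.73 in KO DA. The KO arrays were above the WT arrays at both locations with no overlap, and the mean difference was 2.32 (SE 0.24, adjusted p = 3.3e-07). Ltbp2, a member of the latent TGF-beta binding protein family that associates with fibrillin microfibrils, read 8.54 and 8.12 in WT AA, 10.10 and 10.14 in KO AA, 7.17 and 7.91 in WT DA and 9.64 and 9.15 in KO DA. Again each KO pool exceeded each WT pool of its location, by 1.67 in the mean (SE 0.17, adjusted p = 3.3e-07).

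Col8a1, a short-chain collagen that vascular cells deposit during remodelling, was low in WT AA, at 4.12 and 5.46, and reached 6.28 and 6.82 in KO AA. In DA it went from 5.50 and 6.25 in WT to 8.27 and 8.44 in KO. The rise was 1.97 in the mean (SE 0.25, adjusted p = 1.1e-05), and in both genotypes the DA arrays were above the AA arrays. Itgbl1, a secreted protein with integrin-like repeats, rose by 1.75 (SE 0.24, adjusted p = 2.8e-05), from 6.20 and 5.23 to 7.38 and 8.22 in AA and from 6.86 and 6.35 to 7.99 and 8.66 in DA. Neither gene showed an overlap of KO and WT arrays at either location.

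**Figure D2:**
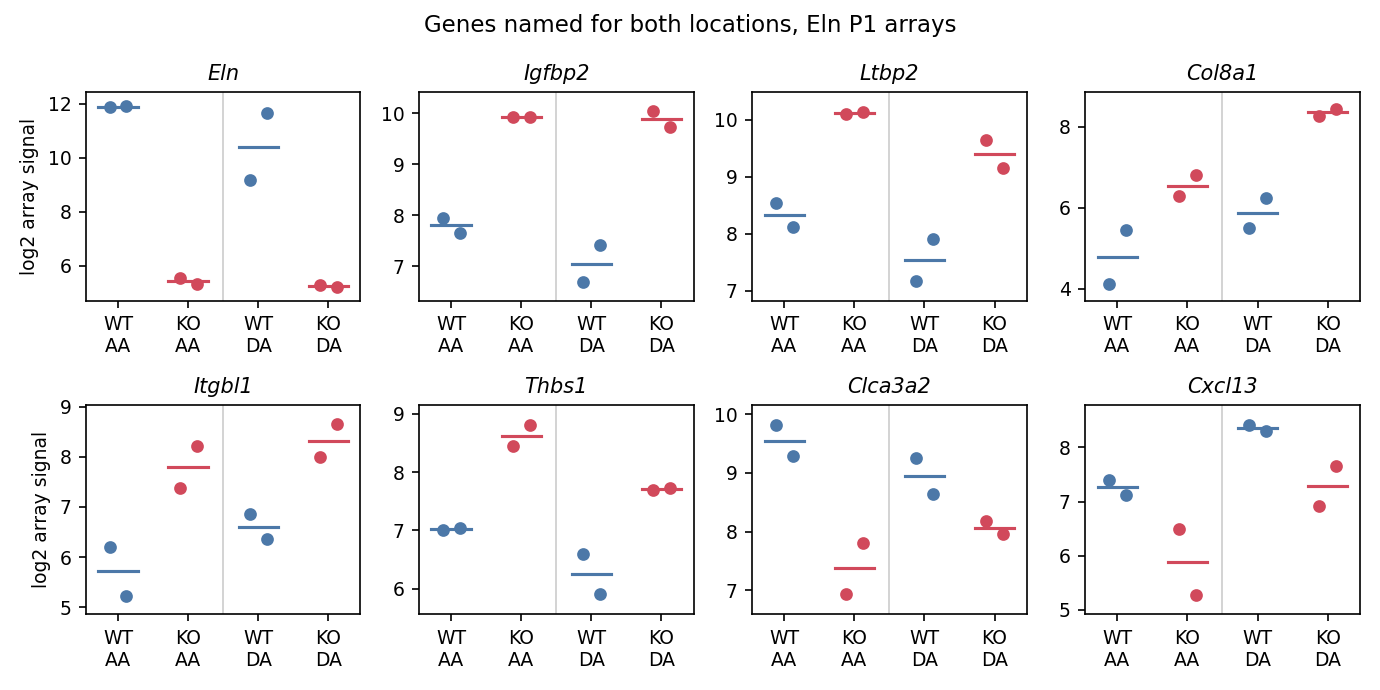
Log2 array signal of 8 genes in the 8 arrays, WT in blue and KO in red, AA to the left and DA to the right of the grey line. Each point is 1 array of pooled aortas and each bar the mean of 2 arrays. KO and WT points are separate at both locations in each panel, with Eln, Clca3a2 and Cxcl13 lower and the other 5 genes higher in KO.

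The remaining genes with the largest rises in the mean were Moxd1 (1.69, SE 0.21), a monooxygenase-like protein, Hectd2 (1.64, SE 0.22), a ubiquitin ligase, Hapln1 (1.62, SE 0.27), which links aggrecan and versican to hyaluronan, and Chad (1.60, SE 0.36), a cartilage matrix protein. They were followed by Tenm3 (1.54, SE 0.20), a cell-surface teneurin, Frzb (1.49, SE 0.27), a secreted Wnt antagonist, Adamts14 (1.45, SE 0.21), a procollagen N-propeptidase, and Gna14 (1.40, SE 0.21), a G protein alpha subunit. Hectd2 was the steadiest of these, at 4.90 to 5.35 in all 4 WT arrays and 6.67 to 7.31 in all 4 KO arrays. Chad was called in AA (2.01, adjusted p = 0.033) and had an adjusted p of 0.13 in DA. The adjusted p of these 8 genes in the mean ran from 9e-06 for Moxd1 to 0.0055 for Chad. The second probe set of Adamts14 gave a smaller difference of 0.72.

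Among the 21 tested genes of elastic fibres and microfibrils, 9 were higher in the mean and only Eln was lower, against 3.63% of all tested genes higher and 3.83% lower. The median of the list was 0.33 in AA and 0.60 in DA. For the list counts below the shares are the same in the mean, 1.33% higher and 0.9% lower in AA, and 5.28% and 10.3% in DA. Calls depended on signal: in the brightest of 4 bins, 278 of 3222 genes were higher in the mean and 371 in DA. The lists were not compared with genes of like signal. All 4 genes of the latent TGF-beta binding protein family were among the 9: beside Ltbp2, Ltbp3 rose by 0.94 (SE 0.16), Ltbp4 by 0.81 (SE 0.19) and Ltbp1 by 0.78 (SE 0.15). Ltbp1 and Ltbp3 were also called in AA and in DA separately. Fbn2, the fibrillin of the developing vessel, read 7.34 and 7.20 in WT AA and 7.20 and 8.16 in KO AA, which overlap, but 5.49 and 6.14 in WT DA against 7.53 and 7.92 in KO DA. Its effect differed between the locations by 1.14 (adjusted p = 0.041, limma). The test of this difference, also for genes below, rests in part on the WT DA arrays with raised background. Over all genes 272 were more positive in DA by it. This count was 55 with array background as a covariate, 7 on the 8 arrays alone and 0 with the 16 P1 arrays. Fbln5, which tethers tropoelastin to microfibrils and cells, rose by 0.53 (SE 0.12), and Vcan, the large proteoglycan versican, by 0.64 (SE 0.13). Mfap4 (0.58, SE 0.17) and Emilin1 (0.82, SE 0.21) completed the group.

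Of the 4 tested lysyl oxidase genes Loxl3 alone was called higher, by 0.78 (SE 0.17, adjusted p = 0.0046). Lox, the main cross-linking enzyme of elastin, was at 10.20 and 10.34 in WT AA, 11.02 and 11.40 in KO AA, 9.74 and 9.98 in WT DA and 10.46 and 10.86 in KO DA. KO was above WT at both locations, and the mean difference of 0.72 had an SE of 0.23 and an adjusted p of 0.054. Loxl1 differed by 0.28 (adjusted p = 0.21).

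Of the 11 fibrillar collagen genes 1 was called in the mean, and of 16 collagen processing genes 7, all higher. Col1a1 differed by 0.35 (adjusted p = 0.50) and Col3a1 by -0.08 (adjusted p = 0.86), and the called fibrillar gene was Col11a1 (0.94, SE 0.19). In WT DA, Col1a1 read 8.71 on replicate 1 and 10.63 on replicate 2, a gap that limits any statement on it in DA. Col12a1, a fibril-associated collagen, rose by 0.71 (SE 0.15). The processing genes counted 3 of 16 higher in AA and 8 of 16 in DA, with a list median of 0.28 in AA and 0.68 in DA. P4ha3, a prolyl 4-hydroxylase subunit, read 7.19 and 7.26 in WT AA, 8.26 and 8.13 in KO AA, 6.50 and 6.76 in WT DA and 8.61 and 8.03 in KO DA, a rise of 1.18 (SE 0.12, adjusted p = 3.3e-07) with no overlap. The lysyl hydroxylases Plod1 (0.92, SE 0.18) and Plod2 (0.89, SE 0.18) rose too, and the effect on Plod1 was larger in DA than in AA by 1.24 (adjusted p = 0.027). Basement membrane genes counted 6 higher and 0 lower of 17 in the mean, 6 higher in DA and 0 in AA (2 at an unadjusted p under 0.05, limma). Nid2, a nidogen, rose by 0.76 (SE 0.16), and the type IV collagen genes Col4a1 (0.90, SE 0.25) and Col4a2 (0.69, SE 0.18) rose too. Without WT DA replicate 1 the collagen pair was at 0.52 and 0.49. Over 19 settings the call was lost in 9 for Col4a1 and 6 for Col4a2, among them other arrays left out.

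Of the matricellular and adhesive glycoproteins, 9 of 22 were higher and 0 lower in the mean. In AA 7 of 22 were higher, against 1.33% of all genes, and in DA 6 of 22, against 5.28%. Thbs1, a thrombospondin that activates latent TGF-beta, was at 7.01 and 7.05 in WT AA and 8.44 and 8.80 in KO AA, and at 6.60 and 5.91 in WT DA and 7.69 and 7.73 in KO DA. The 2 groups were apart at each location, with a mean rise of 1.37 (SE 0.24, adjusted p = 0.00039). Thbs2 rose by 1.09 (SE 0.13) and Ccn2, a connective tissue growth factor gene, by 1.12 (SE 0.19) from a high level of 10.66 and 10.23 in WT AA. Its second, much dimmer probe set differed by 0.25. Tnc, the gene of tenascin-C, rose by 0.94 (SE 0.15) and Fn1, that of fibronectin, by 0.68 (SE 0.14), both called in AA and with adjusted p of 0.14 and 0.12 in DA.

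Integrins, the receptors that bind these ligands, counted 8 higher and 1 lower of 17 (Itgbl1 is counted here). Itga5, the alpha chain of the fibronectin receptor, was 8.03 and 7.55 in WT AA, 8.50 and 8.65 in KO AA, 6.39 and 6.89 in WT DA and 8.17 and 8.30 in KO DA. Itga11, a collagen receptor chain of mesenchymal cells, was 4.84 and 4.81 in WT AA, 5.80 and 6.28 in KO AA, 5.68 and 5.74 in WT DA and 7.18 and 7.47 in KO DA. Both were higher in every KO array of their location, by 1.04 (SE 0.16) and 1.26 (SE 0.19) in the mean. Itgb5 (0.76, SE 0.14) was called at both locations as well, and Itga9 (0.87, SE 0.14) in AA. Itga8 (0.54, SE 0.13) was called in AA too, with a smaller effect in DA by 0.91 (adjusted p = 0.022), and Itgav (0.48, SE 0.15) and Itgb3 (0.73, SE 0.18) were called in the mean. Itgb8, which pairs with the alpha v chain, was the 1 member that fell, by 0.58.

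Small leucine-rich proteoglycans held more lower than higher genes. Of 11 tested, 3 were lower in the mean, Lum (-0.82, SE 0.14), Dcn (-0.55, SE 0.13) and Aspn (-0.55, SE 0.17), and Bgn was higher (0.39, SE 0.12). Lum, a keratan sulphate proteoglycan that limits collagen fibril width, was 9.77 and 9.83 in WT AA, 8.66 and 9.07 in KO AA, 10.09 and 9.62 in WT DA and 9.37 and 9.54 in KO DA. Lum and Dcn also mark fibroblasts of the outer wall. The fibroblast list counted 3 lower (Lum, Dcn and Dpt, -0.84, SE 0.18) and 1 higher of 14. Its summed log2 signal was 12.93 to 13.11 in WT AA and 12.45 to 12.69 in KO AA, but 12.54 to 12.62 in WT DA and 12.59 to 12.88 in KO DA. Summed signals, here and below, are of deposited values, with the median shift (0.34 in DA) not removed. The part of fibroblasts in the fall of Lum and Dcn was not tested. Without WT DA replicate 1 Aspn was at -0.42 and Bgn at 0.23. Over 19 settings the call was lost in 10 for Aspn and 11 for Bgn, among them other arrays left out. The second probe set of Bgn gave 0.88.

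Matrix proteases and their inhibitors counted 6 higher and 0 lower of 22. Adamts8, a metalloprotease, rose by 1.27 (SE 0.15, adjusted p = 2.4e-06) and was called at both locations, with a larger effect in DA by 0.89 (adjusted p = 0.047). Its second probe set, with a signal of 4.58, differed by 0.24. Mmp2, a gelatinase, rose by 0.88 (SE 0.15), Adamts9 by 0.66 (SE 0.15) and the inhibitor Timp2 by 0.45 (SE 0.11). Mmp9, Mmp12 and Mmp13 were not tested.

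**Figure D3:**
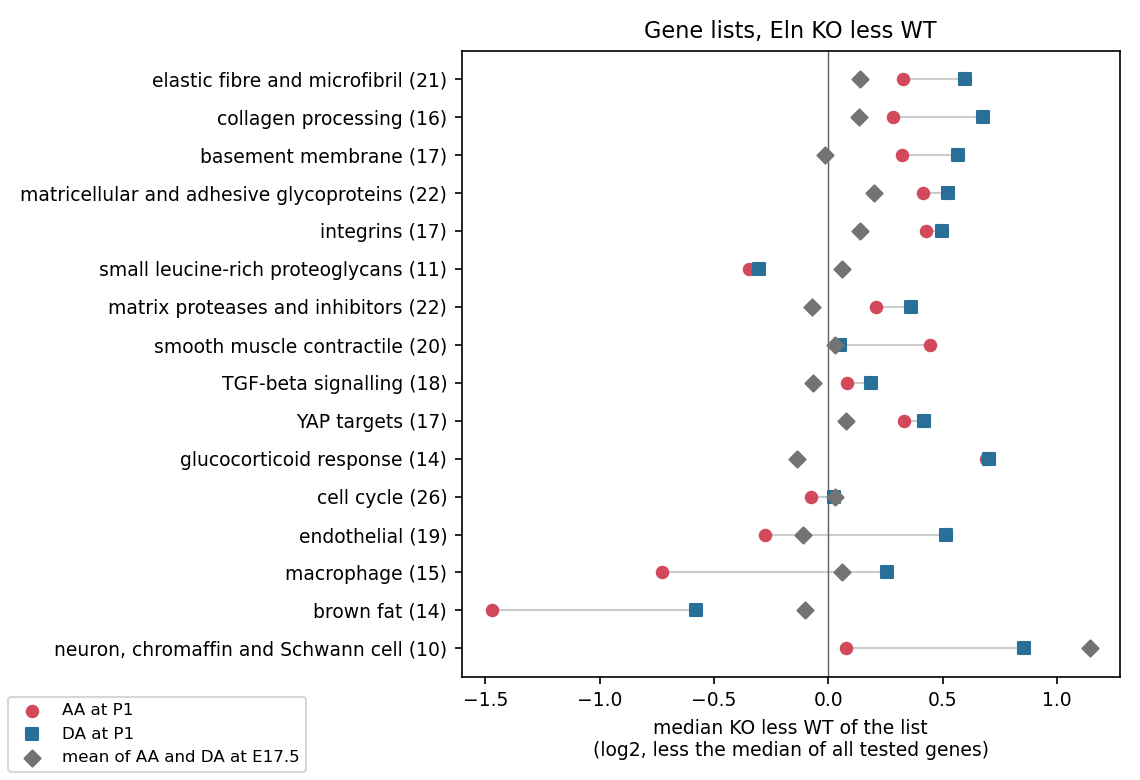
Median difference between KO and WT over the tested genes of 16 lists (log2, with the median shift removed), in AA at P1 (red circles), in DA at P1 (blue squares) and in the mean of both at E17.5 (grey diamonds). Elastic fibre, collagen processing, matricellular and integrin lists lie above 0 at both locations at P1, and the brown fat list lies at -1.47 in AA and -0.58 in DA.

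Among contractile genes of smooth muscle, 3 of 20 were higher in AA and 0 in DA (2 at an unadjusted p under 0.05, limma), and 3 had a smaller effect in DA by the test of the difference. The list had a median of 0.45 in AA and 0.05 in DA. Myh11, smooth muscle myosin heavy chain, read 9.19 and 8.94 in WT AA and 10.14 and 10.16 in KO AA, but 8.80 and 9.66 in WT DA and 9.43 and 9.56 in KO DA. The AA arrays were apart and the DA arrays overlapped, and the effect differed between locations by -1.18 (adjusted p = 0.008). Smtn (1.03 in AA, adjusted p = 0.040) and Cald1 (1.00 in AA, adjusted p = 0.008) were the others, and Acta2 (0.40 in AA, adjusted p = 0.40) and Tagln (0.35 in AA, adjusted p = 0.39) did not pass. The summed log2 signal of 8 smooth muscle markers was 13.24 to 13.44 in WT AA and 13.80 to 13.85 in KO AA, and 12.68 to 13.35 in WT DA and 13.37 to 13.40 in KO DA. In tissue of this kind more cells of a type and more RNA per cell cannot be told apart, and the part of smooth muscle content in the matrix results was not tested. Of 26 cell cycle genes 0 were called in the mean by limma and 2 had an unadjusted p under 0.05, Mki67 was at -0.05 (SE 0.14), and the list median was -0.06. 

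In TGF-beta signalling 1 of 18 genes was called in the mean, against 7.46% of all tested genes. By limma 8 of the 18 had an unadjusted p under 0.05 in the mean, against 2871 of all 12887. In AA 1 was called higher and 1 lower, and in DA 4 higher and 0 lower. The gene called in the mean was the target Pmepa1 (1.18, SE 0.17, adjusted p = 6.1e-05, limma), called at both locations. Tgfb2 (0.22) and Tgfbr1 (0.03) were not called in the mean. Pmepa1 read 8.85 and 7.96 in WT AA, 9.48 and 9.57 in KO AA, 7.29 and 7.79 in WT DA and 9.18 and 8.97 in KO DA, with no overlap. Targets of the YAP coactivator counted 3 of 17: Ccn2, Crim1 (0.72, SE 0.18) and Fjx1 (1.27, SE 0.17), the last one called in DA (1.87) with an adjusted p of 0.19 in AA. In the insulin-like growth factor system 4 of 11 were higher, Igfbp2, Igfbp7 (0.56, SE 0.12), Igf1r (0.58, SE 0.13) and Igf2r (0.46, SE 0.13), while the ligands Igf1 (-0.30) and Igf2 (0.35) did not pass. Of 18 FGF and PDGF genes 4 were higher, Fgf2 (0.62, SE 0.14), Pdgfd (0.70, SE 0.17), Pdgfrb (0.85, SE 0.21) and Fgfr1 (0.46, SE 0.13). Without WT DA replicate 1 Pdgfrb was at 0.53. Over 19 settings the call was lost in 9 for Fgfr1, 7 for Igf2r, 6 each for Crim1 and Pdgfd and 5 for Pdgfrb. It was lost in 3 or fewer for the other genes called in these lists.

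Ace, the gene of angiotensin-converting enzyme, was the 1 called gene of 7 in the renin-angiotensin list. It read 9.70 and 9.67 in WT AA, 10.49 and 10.68 in KO AA, 8.24 and 8.56 in WT DA and 9.90 and 10.12 in KO DA. The KO arrays were higher at both locations, by 1.11 in the mean (SE 0.14, adjusted p = 6.4e-06), and Agt (-0.47, adjusted p = 0.13) and Agtr1a (-0.32, adjusted p = 0.37) did not pass. Crabp2, a carrier of retinoic acid, rose by 1.33 (SE 0.24), with 5.24 and 6.21 in WT AA against 7.63 and 7.56 in KO AA. Cacna1g, a T-type calcium channel, rose by 1.06 (SE 0.16).

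Of 14 tested genes that glucocorticoids induce, 9 were higher and 0 lower in the mean, against 3.63% and 3.83% of all tested genes. The list median was 0.69 in AA and 0.70 in DA. Zbtb16, a zinc finger transcription factor, read 5.99 and 6.36 in WT AA, 7.73 and 7.73 in KO AA, 5.23 and 5.78 in WT DA and 6.63 and 6.52 in KO DA. The difference was 1.16 (SE 0.17, adjusted p = 7e-05), with no overlap at either location. Per1 (0.89, SE 0.18), a clock gene, was called at both locations too, and Fkbp5 (0.66, SE 0.14), a cochaperone of the receptor, and Errfi1 (0.83, SE 0.19) in the mean. Tsc22d3, another known target, differed by 0.21 (adjusted p = 0.46). Of 13 inflammatory genes 1 was higher, Cxcl12, and 2 were lower, Cxcl13 and Vcam1.

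The 15 genes lower at both locations were led by Eln and by Clca3a2, a member of the chloride channel accessory family. Clca3a2 was 9.81 and 9.29 in WT AA, 6.94 and 7.81 in KO AA, 9.26 and 8.65 in WT DA and 8.18 and 7.96 in KO DA. Cxcl13, a B cell chemokine, was 7.40 and 7.13 in WT AA, 6.50 and 5.28 in KO AA, 8.42 and 8.30 in WT DA and 6.91 and 7.65 in KO DA. Each WT array lay above each KO array of its location, and the mean differences were -1.68 (SE 0.22, adjusted p = 1.4e-05) and -1.38 (SE 0.22, adjusted p = 0.00017). Cst9, a cystatin family gene picked from the 15 after its values were seen, fell by 1.53, although 1 KO DA array (5.35) lay above 1 WT DA array (5.30), and Fabp5, a fatty acid binding protein chosen in the same way, by 0.74. Pln, the gene of phospholamban, which restrains the calcium pump of the sarcoplasmic reticulum, read 8.06 and 6.94 in WT AA, 6.04 and 5.81 in KO AA, 6.40 and 6.98 in WT DA and 4.86 and 5.08 in KO DA. It was lower in every KO array, by 1.80 in the mean (SE 0.35, adjusted p = 0.0016), called in DA and with an adjusted p of 0.098 in AA. Maf, at -1.65 (SE 0.51, adjusted p = 0.040), rested on replicate 1 of each KO group, 5.56 and 5.10, while replicate 2 of each, 8.00 and 8.30, was within the WT range of 7.97 to 8.61.

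After Eln, fat cell genes led the lower genes of AA. Adig (-3.11, SE 0.37), Gpd1 (-2.55, SE 0.49), Rbp7 (-2.54, SE 0.56), Cd36 (-2.47, SE 0.54), Cidec (-2.47, SE 0.51) and Cox8b (-2.47, SE 0.64) were the 6 called genes with the largest falls in AA beside Eln (-6.46). Brown fat surrounds the aorta of newborn mice. Of 14 tested brown fat genes, 5 were lower in the mean (Cidea, Pparg, Fabp4, Cd36 and Cox8b) and Prdm16 was higher, against 3.83% of all genes lower.

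The fat cell values varied widely within groups. Cidec was 5.83 and 8.20 in the WT AA arrays, 4.21 and 4.88 in KO AA, 4.64 and 5.12 in WT DA and 4.83 and 6.08 in KO DA. Ucp1, the thermogenic protein of brown fat, was 4.74 and 9.38 in the WT AA arrays and 5.04 and 6.12 in KO AA, and differed by -1.12 (adjusted p = 0.26). The summed log2 signal of the 16 markers was 12.08 to 13.38 in WT AA, 11.44 to 11.91 in KO AA, 12.39 to 13.01 in WT DA and 12.15 to 12.51 in KO DA. WT AA replicate 2 was thus the array highest in fat cell RNA. Without it the AA difference was -1.22 for Gpd1, -1.36 for Rbp7, -1.44 for Cd36, -1.30 for Cidec and -1.39 for Cox8b. Without KO AA replicate 1 it was -2.46, -2.13, -2.07, -2.19 and -2.75 in the same order. Over 15 settings, which include each AA array left out, the AA call was lost in 4 each for Gpd1, Rbp7, Cd36 and Cidec. It was lost in 6 for Cox8b and in 1 for Adig. Whether the pools differed in the fat left on the vessel is not given in the sources used here, and its part in these falls was not tested.

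**Figure D4:**
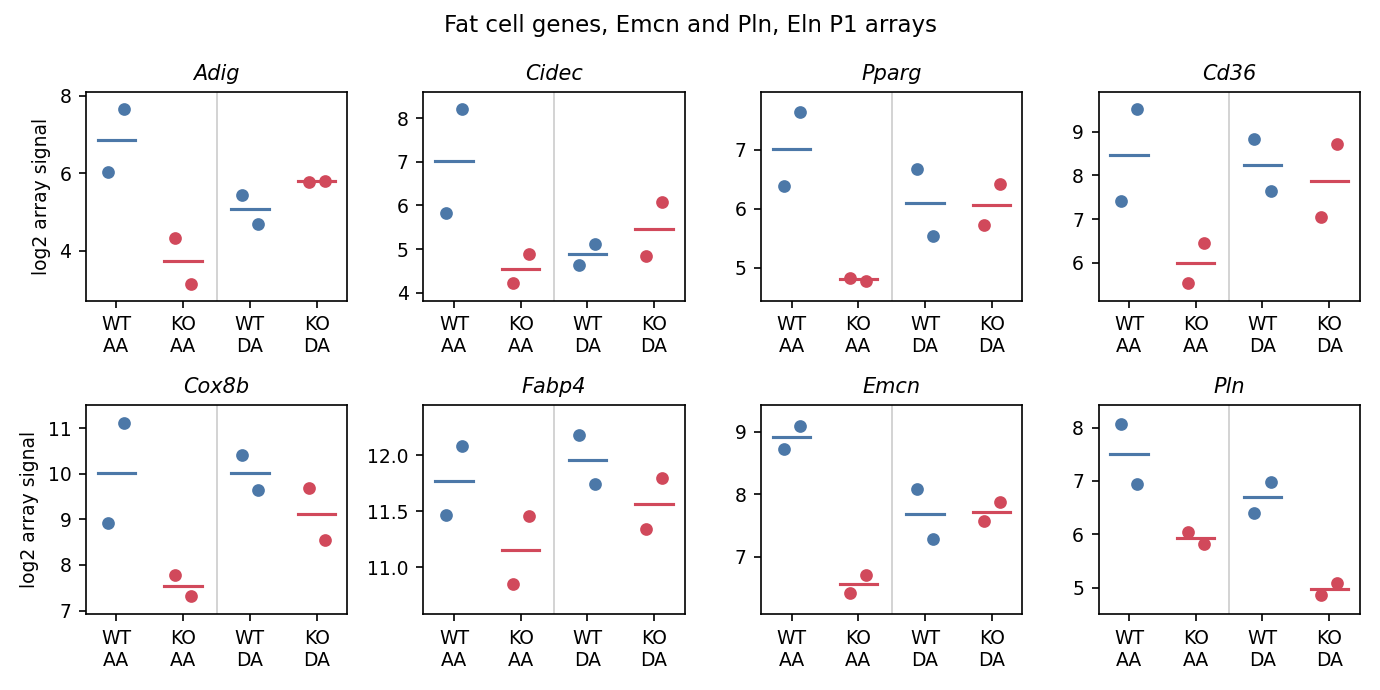
Log2 array signal of 6 fat cell genes, of Emcn and of Pln in the 8 arrays, WT in blue and KO in red, with bars for the mean of 2 arrays. Adig, Cidec, Pparg, Cd36 and Cox8b are highest on the same WT AA array, Emcn differs in AA and overlaps in DA, and Pln is lower in KO at both locations.

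Of 19 endothelial genes 1 was higher (Flt1, 0.58, SE 0.15) and 1 lower (Emcn, -1.30, SE 0.21), against 3.63% and 3.83% of all tested genes. The list median was -0.28 in AA and 0.52 in DA. A larger KO effect in DA than in AA was called for 6 of the 19, against 2.11% of all tested genes. Emcn, a sialomucin of endothelium, was 8.73 and 9.09 in WT AA and 6.42 and 6.71 in KO AA, and 8.09 and 7.28 in WT DA and 7.57 and 7.88 in KO DA. Only the AA arrays were apart, with a difference between locations of 2.03 (adjusted p = 0.0021), whereas Pecam1 (0.18) and Cdh5 (-0.18), which mark the same cells, did not pass the test in the mean. Summed endothelial signal was 11.87 to 12.07 in WT AA and 11.52 to 11.54 in KO AA, and 11.28 to 11.37 in WT DA and 11.82 to 12.27 in KO DA. Of 15 macrophage genes 2 were lower, Adgre1 (-0.64, SE 0.16) and Aif1 (-0.82, SE 0.22). Their summed signal was 11.62 to 11.73 in WT AA, 10.41 to 11.19 in KO AA, 11 to 11.29 in WT DA and 11.63 to 11.85 in KO DA. In these sums the KO arrays were below WT in AA and above it in DA, with the median shift of 0.34 in DA not removed. By limma, 0 of the 15 were called higher in DA (4 at an unadjusted p under 0.05).

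Of 10 tested cartilage genes 3 were higher in the mean, Hapln1, Chad and Acan (0.62, SE 0.19). Col2a1, Sox9 and Comp were tested and not called in the mean, and Matn1, Matn3 and Col9a1 were not tested. The list median was -0.03 in the mean, 0.43 in AA and -0.23 in DA. In AA 2 were higher and 0 lower, and in DA 1 was higher and 2 were lower. Summed cartilage signal was 10.03 to 10.23 in WT AA, 10.65 to 10.93 in KO AA, 9.45 to 9.77 in WT DA and 9.91 to 10.32 in KO DA, and its part in these results was not tested. Of 15 heart muscle genes Tnnc1 was higher (1.09, SE 0.29), and Actc1 (-1.18, SE 0.32) and Myl3 (-0.92, SE 0.28) were lower. Of 10 neuron, chromaffin and Schwann cell genes Uchl1 was higher (1.10, SE 0.28), and Dbh was at 7.42 on KO DA replicate 2 and at 3.75 to 4.85 on the other 7 arrays. Of the liver transcripts, Hamp (-2.22, SE 0.63), Ahsg (-1.29, SE 0.40) and Apoa1 (-0.87, SE 0.27) were lower, 3 of 9 in a list added after their values were seen. These calls were lost in 7, 13 and 13 of 19 settings, in that order. Summed liver signal was 10.62 to 10.68 in WT AA, 9.11 to 9.44 in KO AA, 10.15 to 10.41 in WT DA and 9.34 to 9.59 in KO DA. The part of such RNA in the results was not tested. Without WT DA replicate 1 Tnnc1 was at 0.71 and Acan at 0.39, and without WT AA replicate 2 they were at 0.93 and 0.49. Neither kept its call with each of the 8 arrays left out in turn.

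The effect of the knockout differed between DA and AA for 1288 genes (9.99%), 272 more positive (2.11%) and 1016 more negative (7.88%) in DA. Of the 1016, 462 had passed the filter through WT DA alone, which leaves 554. The positive end held the fat cell genes Adig (3.47), Gpd1 (2.88) and Cidec (2.69), with Scamp5 (2.80) and the acute phase gene Saa3 (2.56). The call was lost in 13 of 19 settings for Saa3 and in 7 of 19 for Cidec. Scamp5 was 7.27 and 7.04 in WT AA, 5.21 and 5.96 in KO AA, 5.98 and 5.79 in WT DA and 8.02 and 6.91 in KO DA, lower in KO in AA and higher in DA. The negative end held Pla2g10os (-9.08), Astx5 (-6.46), Srsy (-5.98), Speer4cos (-5.22) and Srsx (-4.90), among them multicopy genes of male germ cells. Srsy was 9.83 and 8.98 in WT DA and 3.07 to 5.47 on the other 6 arrays. Astx5 was 8.55 and 8.34 in WT DA and 2.81 to 5.01 on the others. Of 11 such germ cell genes, a list chosen after these values were seen, all 11 passed the filter on low signal through WT DA alone, so that their lower value in KO DA was set by that filter and is no result about them (11 were called lower in DA, against 10.3% of all tested genes). Their summed log2 signal was 10.73 to 11.39 in WT DA, 7.11 to 7.33 in WT AA, 7.0 to 7.70 in KO AA and 6.65 to 6.81 in KO DA. It was high on the WT DA arrays, those with the raised background.

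By signal level, the median KO effect in DA ran from -0.45 in the dimmest of 4 bins of genes to 0.20 in the brightest, and in AA from 0.09 to -0.02. Of the 1328 genes lower in DA, 991 lay in the dimmest bin, and of the 680 higher in DA, 371 in the brightest, against 24 of 116 and 79 of 171 in AA. Without the 826 genes that passed the filter through WT DA alone, DA counted 680 higher and 671 lower.

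**Figure D5:**
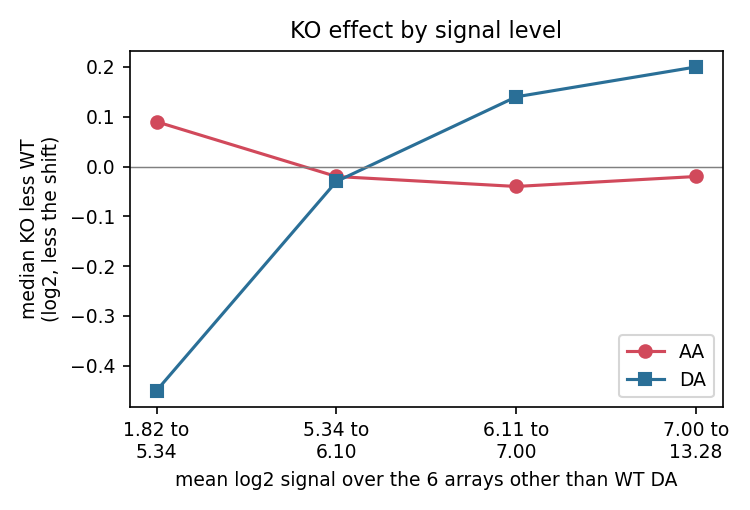
Median difference between KO and WT (log2, with the median shift removed) in 4 bins of about equal size of the tested genes ranked by mean signal over the 6 arrays other than WT DA, for AA (red circles) and DA (blue squares). The DA line climbs from -0.45 to 0.20 while the AA line stays between 0.09 and -0.04.

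At E17.5, with 8 arrays of the same model, 34 genes were called (0.264%), 23 higher (0.178%) and 11 lower (0.0854%). The effect at P1 differed from that at E17.5 for 62 genes (0.481%), 16 more positive and 46 more negative, of which 29 had passed the filter through WT DA alone. More positive at P1 were Trp53inp1 (1.46), Hectd2 (1.39), Zbtb16 (1.37), Eef2k (1.21) and Slc1a4 (1.13). Zbtb16 differed by -0.22 at E17.5, and of the 14 glucocorticoid response genes limma called 0 at E17.5 (2 at an unadjusted p under 0.05, median -0.14) and 3 had a called difference between the stages. More negative at P1 were the liver transcripts Afp (-3.17), Alb (-2.55) and Ttr (-1.98), with Zfp981 (-1.99) and Sly (-1.96). Each of these 10 genes lost the call in at least 1 setting. Of the more negative genes, Afp and Alb lost it in 19 of 26, Ttr in 18 of 26, Sly in 16 of 24 and Zfp981 in 12 of 24. Of the more positive genes, Hectd2 and Slc1a4 lost it in 15 of 26, Eef2k in 7 of 26 and Trp53inp1 and Zbtb16 in 1 of 26. Zfp981 and Sly had passed the filter through WT DA alone. Their lower values in KO at P1 were set by that filter and are no result about them. Of the 53 genes higher at both locations, 49 had a positive difference at E17.5, 10 were called there and 9 had a called difference between the stages. Igfbp2 (1.59), Itgbl1 (1.5), Col8a1 (2.54) and Itga11 (1.20) were among those already called at E17.5, and Clca3a2 had fallen by 1.65 there.

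In the Efemp2 model at P1, whose KO lacks the fibulin-4 needed to assemble elastic fibres while Eln is intact, 440 genes were higher (3.41%) and 236 lower (1.83%) in KO, 5.25% in all. The effects of the 2 knockouts, each set against its own WT arrays, differed for 43 genes (0.334%), 19 more positive and 24 more negative in Eln KO. Moxd1 rose by 1.69 in Eln KO and was at 0.03 in Efemp2 KO, and Hapln1 rose by 1.62 in Eln KO and was at -0.04 in Efemp2 KO, a difference of 1.67 for each. Cldn5 (1.35), Btc (1.22) and Cytl1 (1.20) were the next. Beside Eln itself, Mxi1 (-1.89), C4b (-1.79), Cd109 (-1.62), Cxcl13 (-1.60) and Vegfd (-1.59) were more negative in Eln KO. Fitted on the 16 P1 arrays of the 2 models alone, this contrast called 1 gene rather than 43. The 10 genes named here beside Eln each lost the call in at least 1 setting, Hapln1 in 12 of 27 and Mxi1 in 7 of 27. Inflammatory and acute phase genes had a median of 0.71 in Efemp2 KO, with 6 of 13 called higher, and of -0.06 in Eln KO. Of the 53 genes higher at both locations in Eln KO, 28 were called higher in Efemp2 KO, among them Igfbp2 (2.29), Col8a1 (3.32) and Thbs1 (2.42), and of the 15 lower genes 3 were called lower.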

How the data were processed

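RNA of aorta pools was measured on 48 arrays of the Eln, Efemp2 and Lox models, 8 of them of the Eln model at P1. The deposited values are log2 signals per probe set, made by the authors with RMA in Affymetrix Expression Console per the submitters' processing notes. The array name, software versions, genome build and the sets of arrays normalized together are not given in the sources used here. Of 41345 probe sets, 23521 carried 1 gene symbol in the platform annotation, 1814 several and 16010 none, and 23328 of the first matched RefSeq by gene ID. Each of 22180 genes was represented by its brightest probe set over the 8 arrays, and 12887 with at least 1 of 4 group means at or above 5.04 were tested. limma 3.58.1 in R 4.3.3 fitted a mean for each of 24 groups to all 48 arrays (24 residual and 7.06 prior degrees of freedom). Each contrast was tested against its own median over all tested genes, with Benjamini-Hochberg adjustment and a threshold of 0.05, and the fit was tested on simulated data. Contrasts were KO less WT in AA, in DA and in their mean, and the differences of this effect between DA and AA, P1 and E17.5 (means of AA and DA), and Eln and Efemp2 at P1. The comparison, its gene lists and the rule for named genes were chosen with earlier results of these data known. Where probe sets of 1 gene disagreed in sign, as for Col5a1 (0.59 and -0.42), Mpc1 (0.86 and -0.16) and Uchl1 (1.10 and -0.36), the brighter one was used. Named were Eln, the largest changes of each contrast (12, 6 or 5 per direction, skipping predicted genes, olfactory and vomeronasal receptors, small RNA genes, immunoglobulin and T cell receptor segments, and Btbd35f, AF357 and histone copies) and up to 4 genes with the smallest p of each of 48 lists; genes outside this rule were named after their values were seen, as were 2 added lists. Alternatives were the filter, cyclic loess, no shift removal, smaller sets of arrays, trended robust variances, a replicate block, array background as a covariate, the mean of probe sets, and each array left out in turn. One further filter, without the WT DA group, was added after seeing the data. The number of arrays, 2 per group, limits the precision.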

Additional observations from a re-analysis of the deposited data

Results flagged for a closer look

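The effect of the knockout differed between DA and AA by the test of the difference for 1288 genes, among them Adig (3.47), Gpd1 (2.88), Scamp5 (2.80), Cidec (2.69) and Saa3 (2.56) on the positive side. Pla2g10os (-9.08), Astx5 (-6.46), Srsy (-5.98), Speer4cos (-5.22) and Srsx (-4.90) were on the negative side, all of them high on the WT DA arrays. Astx5, Srsy and Srsx had passed the filter through WT DA alone, so their values are no result about them.

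The effect differed between P1 and E17.5 for 62 genes. It was more positive at P1 for Trp53inp1 (1.46), Hectd2 (1.39), Zbtb16 (1.37), Eef2k (1.21) and Slc1a4 (1.13), and more negative for Afp (-3.17), Alb (-2.55), Zfp981 (-1.99), Ttr (-1.98) and Sly (-1.96). Zfp981 and Sly had passed the filter through WT DA alone, so their values are no result about them.

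The effect of Eln knockout differed from that of Efemp2 knockout at P1 for 43 genes. It was more positive for Moxd1 (1.67), Hapln1 (1.67), Cldn5 (1.35), Btc (1.22) and Cytl1 (1.20), and more negative for Mxi1 (-1.89), C4b (-1.79), Cd109 (-1.62), Cxcl13 (-1.60) and Vegfd (-1.59). Each difference was past an adjusted p of 0.05 in limma, and each of these 10 genes lost the call in at least 1 other setting.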

How the results depend on the processing

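Counts of called genes moved by over 1.5 times in these settings. The mean of AA and DA (962) gave 1927 without the filter, 606 with a filter on the mean of the 8 arrays, 614 with a filter without WT DA (added after seeing the data), 1742 without removal of the median shift, 7 and 71 when fitted on its 8 arrays and on 16 P1 arrays, and 129 with array background as a covariate. AA (287) gave 1, 6 and 475 in the last 3 of these settings. DA (2008) gave 4556, 1069, 1100, 3904, 549, 529 and 39 in the same order as the mean. DA less AA (1288) gave 1981, 611, 678, 2021, 218, 25 and 255 in that order, and 799 after cyclic loess. P1 less E17.5 (62) gave 5 and 6 with the 2 filters, 5 after cyclic loess, 130 without removal of the shift, 95 on its own arrays, 35 with trended robust variances and 1 with the covariate. Eln less Efemp2 (43) gave 79 after cyclic loess, 1 on its own 16 arrays and 84 with the covariate. With 1 array left out, the mean ran from 433 (KO AA replicate 2) to 1476 (WT DA replicate 2), AA from 54 (KO AA replicate 1) to 294, DA from 1286 (WT DA replicate 1) to 2214, DA less AA from 327 (KO AA replicate 1) to 1504, P1 less E17.5 from 4 (KO DA replicate 2 of E17.5) to 278 (WT DA replicate 2) and Eln less Efemp2 from 29 to 223 (Eln WT DA replicate 2). The mean also moved to 563 without WT DA replicate 1, AA to 131 and 144 without WT AA replicate 2 and KO AA replicate 2, DA to 1307 and DA less AA to 839 without KO DA replicate 2. Of the 112 named genes called in the mean, 64 kept the call with each of the 8 arrays left out, and 6 (Eln, Igfbp2, Moxd1, Ltbp2, Hectd2 and Pln) in all 19 settings. Mpc1 in DA turned to -0.16 with the covariate. The causes of these moves were not tested.

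With replicate number as a block the counts were 1073, 294, 2177, 1422, 85 and 52 in the order above. Deviations of same-numbered arrays correlated at -0.128 to 0.383, highest between KO AA and KO DA, and not every pair was above 0.1. What the number marks is not given in the sources used here.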
